A study of Mus musculus with 2 samples.

Results

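The cycling Treg-like cells were 189 of the 22284 cells kept from 2 single-cell RNA libraries of tumour leukocytes, 123 of 11131 cells in the KO library and 66 of 11153 in the WT library. Living leukocytes (CD45+, DAPI negative) had been sorted from B16-F0 tumours, a transplantable mouse melanoma line, that grew in mice of a KO or a WT genotype. Each genotype had 1 library. The labels do not say which gene is missing in KO animals, nor their strain, age or sex, how many animals gave cells to a library or whether they were pooled, so the counts hold no check on the genotype. The labels call the cell type TIL-Treg, whereas the stated sort takes all living leukocytes, and both libraries held B cells and myeloid cells.

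Members were chosen from their raw UMIs (unique molecular identifiers, each standing for 1 captured RNA molecule). A member had at least 2 UMIs of Cd3d, Cd3e and Cd3g together, at least 1 of Ikzf2, at least 1 of Ctla4, none of Cd8a or Cd8b1, at most 1 of Cd79a, at most 2 of Lyz2, and at least 2 of the proliferation genes Mki67 and Top2a together. Foxp3 was not used. The values that chose the members are given as descriptions, and every gene of cells picked in this way is bound to the choice to some degree. No test was made, as each genotype had a single library. Intervals in brackets are exact 95% intervals that cover counting error only, and cells of a library are not replicates of its genotype.

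Regulatory T cells (Treg cells) are Cd4 T cells that restrain other lymphocytes and are common in tumours. Their identity depends on the transcription factor Foxp3, and they carry the high-affinity interleukin-2 receptor chain Il2ra, the checkpoint receptor Ctla4 and the transcription factor Ikzf2 (Helios). A dividing cell copies its DNA in S phase, with helicase and nucleotide-making enzymes, and then builds the spindle and separates its chromosomes in G2 and mitosis, with cyclin B, its kinase Cdk1 and the anaphase-promoting complex. Mki67 and Top2a, which organise mitotic chromosomes, are read as markers of dividing cells.

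The cycling cells were large in RNA content. They held 2526575 UMIs in KO and 1336801 in WT, at medians of 17010 and 18586 UMIs per cell. Non-cycling Treg-like cells, which met the rest of the rule and had no Mki67 or Top2a UMI, numbered 377 in KO at a median of 5051 UMIs and 174 in WT at 5322. The whole libraries held 112544655 UMIs over 11398 barcodes in KO and 98438084 over 11432 in WT, and 41 kept barcodes occurred in both libraries, none of them among the cycling Treg-like cells. Because a deep cell reaches 2 UMIs more easily, depth and the proliferation rule were not independent, and levels are given per 1000000 UMIs of the class (CPM).

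The members differed widely in proliferation UMIs. Their sum of Mki67 and Top2a had a median of 7 and a maximum of 102 in KO, and a median of 8.5 and a maximum of 158 in WT. In KO, 32 members lay at exactly 2 UMIs, 12 at 3, 5 at 4 and 74 at 5 or more, and in WT the numbers were 18, 7, 2 and 39. Just outside the rule lay 105 KO and 51 WT Treg-like cells with exactly 1 UMI. The members' Ikzf2 had a median of 12 UMIs in KO and 11 in WT, and 9 KO and 4 WT cells rested on 1 Ikzf2 UMI. Ctla4 had a median of 4 UMIs in KO and 5 in WT, with 16 KO and 7 WT cells on 1 UMI.

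Most members carried other Treg or Cd4 T-cell RNA that the rule did not ask for. A Cd4 UMI was found in 93 of 123 KO cells (75.6%) and 50 of 66 WT cells (75.8%), and a UMI of Foxp3, Cd4, Il2ra or Tnfrsf4 in 119 KO (96.7%) and 65 WT cells (98.5%). Tnfrsf18 (GITR), a costimulatory receptor high on Treg cells, was detected in 92.7% of KO and 95.5% of WT cells, and Tnfrsf4 (OX40), another of that family, in 88.6% and 86.4%. A Foxp3 UMI, by contrast, was found in 28 KO cells (22.8% [15.7, 31.2]) and in 39 WT cells (59.1% [46.3, 71.1]). For the 95 KO and 27 WT cells without a Foxp3 UMI the name Treg-like rests on the other genes. Detection alone sets little apart in deep cells. A UMI of any of 20 Treg identity genes was found in 100% of members of both libraries. It was also found in 99.18% of KO and 98.35% of WT cycling Cd8 T cells, whose levels are compared below.

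Cells of 2 kinds stood apart from the rest of the members. The first held RNA of antigen-presenting cells. When the UMIs of H2-Aa, H2-Ab1, Cd74, Cst3, C1qa, C1qb and C1qc were summed per cell, 15 KO cells (12.2%) held 220 to 1560 and all other KO cells at most 31, while 8 WT cells (12.1%) held 303 to 1178 and the others at most 41. These cells had medians of 26144 UMIs in KO and 29991 in WT, and 11 of the 15 KO and 2 of the 8 WT cells were among the 8% of each library with the highest doublet scores. The second kind held at least 2 UMIs of the natural killer (NK) and gamma-delta T-cell genes Ncr1, Klrb1c, Trdc, Tcrg-C1, Tcrg-C2 and Tcrg-C4 together, 10 KO (8.13%) and 13 WT cells (19.7%). Neither kind was seen in 98 KO and 46 WT cells. The limits of both kinds were set after the data were seen, and values without these cells are given below beside the results they bear on.

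The cycling share of Treg-like cells was close in both genotypes. It was 123 of 605 cells in KO (20.3% [17.2, 23.8]) and 66 of 291 in WT (22.7% [18, 27.9]), a log2 ratio of KO over WT of -0.16 [-0.601, 0.296]. With every T cell thinned to 5000 UMIs before the rule was applied, which left out 38.3% of KO and 33.8% of WT T cells, the share was 22.2% [17.6, 27.3] in KO and 21.7% [15.4, 29.1] in WT. The interval of the ratio holds both higher and lower shares in KO, so these counts give no direction. Cycling Treg-like cells made up 2.31% [1.92, 2.75] of KO and 1.91% [1.48, 2.42] of WT T cells.

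Cd8 T cells, the cytotoxic class of the same tumours, are given beside them. Of T cells with at least 2 UMIs of Cd8a and Cd8b1, 608 of 2266 in KO (26.8% [25.02, 28.7]) and 243 of 1508 in WT (16.1% [14.3, 18.1]) met the same proliferation rule. After thinning to 5000 UMIs the shares were 20.1% [18.2, 22.2] in KO and 10.6% [8.84, 12.6] in WT, so the intervals of the libraries did not overlap at either depth. The difference between the KO to WT ratio in Treg-like cells and that in Cd8 cells was not tested.

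Foxp3 ranked first among the genes lower in KO than in WT cycling Treg-like cells. Its 42 UMIs in KO gave 16.6 CPM [11.98, 22.5], against 133 UMIs and 99.5 CPM [83.3, 117.9] in WT, a log2 ratio of -2.58 [-3.12, -2.07]. The gene, on chromosome X from 7573644 to 7595245 (GRCm38, ENSMUSG00000039521), had 0 UMIs in 95 KO cells and 27 WT cells, 1 UMI in 19 and 13, 2 UMIs in 5 and 6, and 3 or more in 4 and 20. No cell decided the value, since the highest cell held 4 UMIs in KO and 11 in WT. Without both kinds of cells that stood apart, Foxp3 lay at 21.2 CPM in KO and 92.3 CPM in WT (log2 -2.12 [-2.72, -1.54]), and in cells with a Cd4 UMI at 15.6 and 110.3 CPM (log2 -2.82 [-3.43, -2.24]).

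Of the Foxp3 UMIs, 0 of 42 in KO and 39 of 133 in WT lay in cells with NK or gamma-delta RNA, and 3 in KO and 24 in WT in cells with antigen-presenting-cell RNA. Foxp3 was lower in KO in Treg-like cells outside the cycling rule too. Non-cycling Treg-like cells held 32.9 CPM in KO and 165.1 CPM in WT (log2 -2.33), and cells with 1 proliferation UMI 39.6 CPM in KO and 134.6 CPM in WT. Cells that should lack Foxp3 rarely held it. A Foxp3 UMI was found in 2 of 1584 KO and 4 of 999 WT myeloid cells (0.126% and 0.400%, at medians of 9090 and 10423 UMIs) and in 0 of 333 KO (exact upper bound 1.10%) and 4 of 2879 WT B cells (0.139%), at medians of 3488 and 3331 UMIs. Thinned to 2000 UMIs, 3.28% of KO and 21.2% of WT cycling Treg-like cells kept a Foxp3 UMI, at 4 UMIs over all KO cells, which is too few to read a level from.

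**Figure D1:**
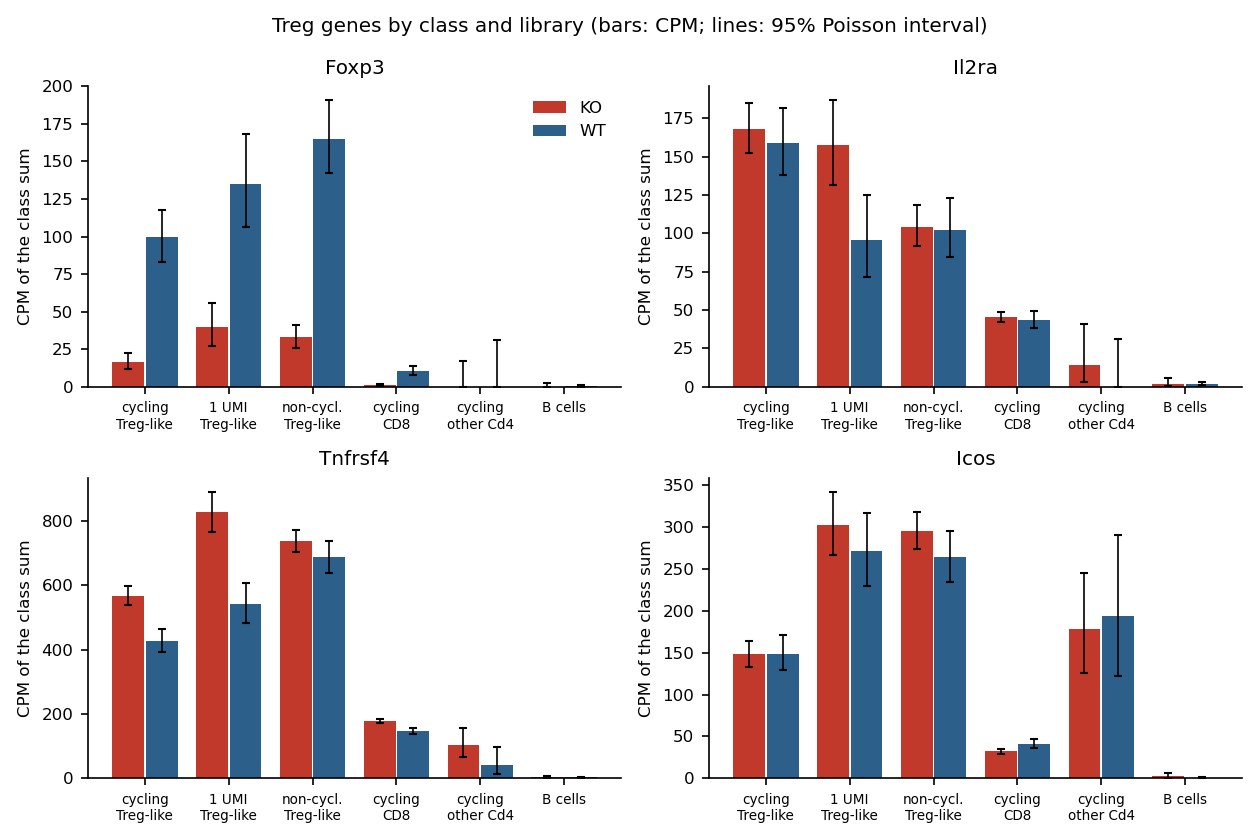
Summed UMIs of Foxp3, Il2ra, Tnfrsf4 and Icos in CPM (vertical axes, from 0) for 6 classes of cells, KO left of WT, with 95% Poisson intervals as lines. Foxp3 is lower in KO in each of the 3 Treg-like classes, at 16.6 CPM in KO and 99.5 CPM in WT for cycling cells, while Il2ra and Icos are at like levels in cycling cells of both libraries.

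Several other Treg genes lay at like levels over all members. Il2ra was at 168.2 CPM in KO and 158.6 CPM in WT (log2 0.08 [-0.16, 0.33]), Icos, a costimulatory receptor, at 148.0 and 148.9 CPM (-0.01 [-0.26, 0.25]) and Tgfb1, the cytokine TGF-beta 1, at 170.6 CPM in both (0.00 [-0.24, 0.24]). The rule genes Ikzf2 (log2 0.07), Ctla4 (-0.11), Mki67 (-0.10) and Top2a (-0.04) were also near 0. Tnfrsf4 was at 568.4 CPM in KO and 426.4 CPM in WT (log2 0.42 [0.27, 0.56]) and Tnfrsf9 (4-1BB) at 246.2 and 184.0 CPM (0.42 [0.20, 0.64]), both under a 1.5-fold difference.

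A gene was counted as higher or lower in KO when its ratio was at least 1.5-fold, its counting interval excluded 1 and both libraries together held at least 20 UMIs, which describes size and counting error alone. Of 8895 measured genes, 279 were higher in KO (3.14%) and 346 lower (3.89%), with a median log2 ratio of 0.01. Among 19 measured Treg identity genes 1 was higher, Ebi3, a subunit of interleukin-35 and interleukin-27 (44.7 CPM in KO, 26.9 CPM in WT, log2 0.73), and 3 were lower. The lower ones were Foxp3, the inhibitory receptor Tigit (7.12 CPM in KO, 16.5 CPM in WT, log2 -1.21) and the cytokine Il10 (3.96 and 13.5 CPM, -1.77), with 18 and 22 Tigit UMIs and 10 and 18 Il10 UMIs behind them. The list's median was -0.01, beside 0.01 over all genes. Without both kinds of cells that stood apart 0 were higher and 4 lower, Foxp3, Tigit, Il10 and the integrin Itgae.

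Members with and without a Foxp3 UMI could be set side by side within each library. The sum of the other Treg identity genes, which do not include Ikzf2 or Ctla4, was 3606 CPM in the 28 KO cells with a Foxp3 UMI and 2512 CPM in the 95 KO cells with none, and 2830 and 2349 CPM in the 39 and 27 WT cells. Il2ra was at 208.7 CPM with and 157.4 CPM without a Foxp3 UMI in KO, and at 171.3 and 140.3 CPM in WT. In both libraries the list sum was lower in the cells with none, which did hold these genes. For Il2ra the intervals with and without a Foxp3 UMI overlapped in both libraries. An Il2ra UMI was found in 85.7% of KO cells with and 65.3% without a Foxp3 UMI, but in 61.5% and 74.1% of WT cells. Mki67 was at 607.2 and 431.2 CPM in KO and at 567.2 and 410.0 CPM in WT, and the medians of total UMIs were 17746 and 17010 in KO and 16158 and 21362 in WT. These splits use a gene with few UMIs, so many cells counted as lacking Foxp3 may have held it unseen. In KO the group with none held all 10 cells with NK or gamma-delta RNA, which had 0 of the 42 Foxp3 UMIs. The 15 KO cells with antigen-presenting-cell RNA had 3 of the 42. In WT the 13 and 8 such cells had 39 and 24 of 133. The splits were not repeated without these cells, whose part in the sums was not tested.

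Division genes lay at similar levels in both genotypes. Among 25 measured S-phase genes 1 was higher in KO and 0 lower, Gins2, part of the replicative helicase (59.4 CPM in KO, 38.9 CPM in WT, log2 0.61), and among 25 G2/M genes 1 was higher and 0 lower, Hmmr, a spindle protein (119.1 and 78.5 CPM, 0.60). The list medians were -0.03 and 0.12. Cdk1 lay at 150.8 CPM in KO and 137.6 CPM in WT (log2 0.13 [-0.13, 0.39]), Ube2c, the ubiquitin-conjugating enzyme of the anaphase-promoting complex, at 286.6 and 288.0 CPM (-0.01 [-0.19, 0.18]), and Mcm6, a subunit of the replicative helicase, at 159.1 and 150.4 CPM (0.08 [-0.17, 0.33]).

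The shares of cells by the larger of their S-phase and G2/M sums were close in both genotypes, with overlapping intervals. More S-phase than G2/M UMIs were held by 74 of 123 KO cells (60.2% [50.9, 68.9]) and 37 of 66 WT cells (56.1% [43.3, 68.3]), and more G2/M UMIs by 45 KO (36.6% [28.1, 45.7]) and 26 WT cells (39.4% [27.6, 52.2]). The sums differed by at most 20% of their total in 19.5% of KO and 18.2% of WT cells. Neither list holds Mki67 or Top2a. A larger S-phase sum does not by itself place a cell in S phase. Non-cycling Treg-like cells also held more S-phase than G2/M RNA, at 517.1 and 209.8 CPM in KO and 444.2 and 173.1 CPM in WT. Thinned to 2000 UMIs, 44.26% of KO and 46.97% of WT members held more S-phase UMIs. The sums were then equal in 18.03% and 13.64%. With all UMIs, Foxp3 was lower in KO in both sets. For cells with more S-phase UMIs it was at 11.2 CPM in KO and 85.1 CPM in WT. For cells with more G2/M UMIs it was at 24.4 and 114.9 CPM.

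**Figure D2:**
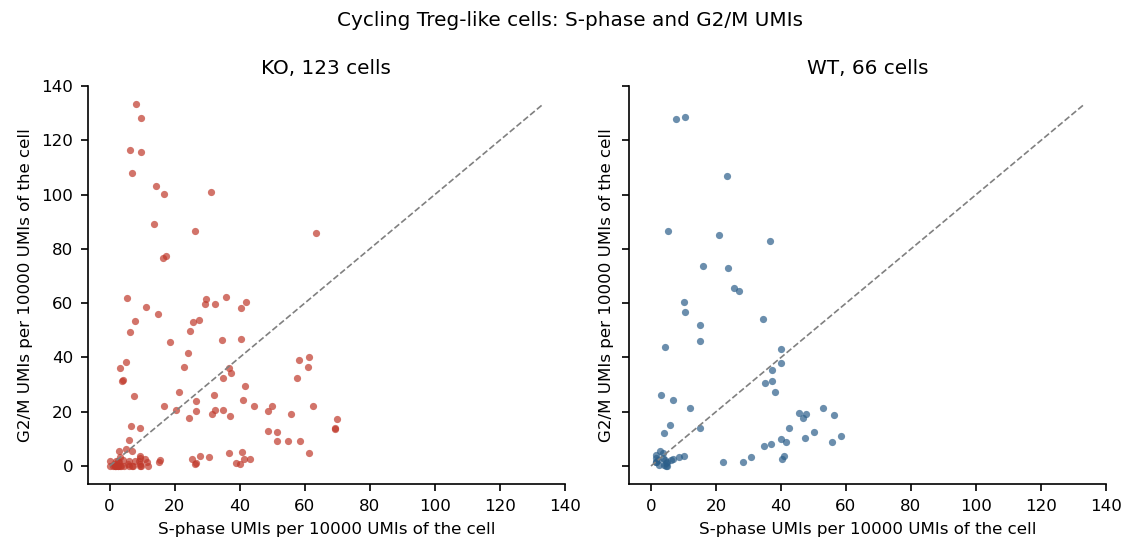
Each point is a cycling Treg-like cell, KO on the left (123 cells) and WT on the right (66 cells), with its S-phase UMIs (horizontal) and G2/M UMIs (vertical) per 10000 of its UMIs; the dashed line marks equal sums. Both libraries have an S-phase arm, a G2/M arm and a group of cells near the origin.

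Cells near the lower edge of the rule held little division RNA. In members with 2 to 4 proliferation UMIs the G2/M genes summed to 516.4 CPM in KO and 529.4 CPM in WT, against 4281 CPM in KO and 4003 CPM in WT for those with 5 or more. Treg-like cells with 1 UMI held 199.2 CPM in KO and 251.5 CPM in WT, and those with none 209.8 and 173.1 CPM. S-phase genes showed a shallower course, at 1302 CPM in KO and 1285 CPM in WT for 2 to 4 UMIs and 3194 and 3229 CPM for 5 or more. The G2/M and S-phase sums for 2 to 4 UMIs thus lay above those of cells outside the rule in both libraries. They were nearer to those than to cells with 5 or more. Replication histones did not rise at 2 to 4 UMIs in KO, at 466.7 CPM against 462.6 CPM with 0 and 447.7 CPM with 1. In WT the values were 746.7, 459.2 and 533.1 CPM. With 5 or more UMIs they were at 6516 CPM in KO and 7902 CPM in WT. Il2ra took different courses in the libraries, at 200.7 CPM in KO and 70.4 CPM in WT for 2 to 4 UMIs, and at 158.5 and 187.1 CPM for 5 or more, so its close levels over all members average over unlike bins. Resting T-cell genes summed to 571.3 CPM in KO and 642.6 CPM in WT for 2 to 4 UMIs and to 246.4 and 451.5 CPM for 5 or more.

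**Figure D3:**
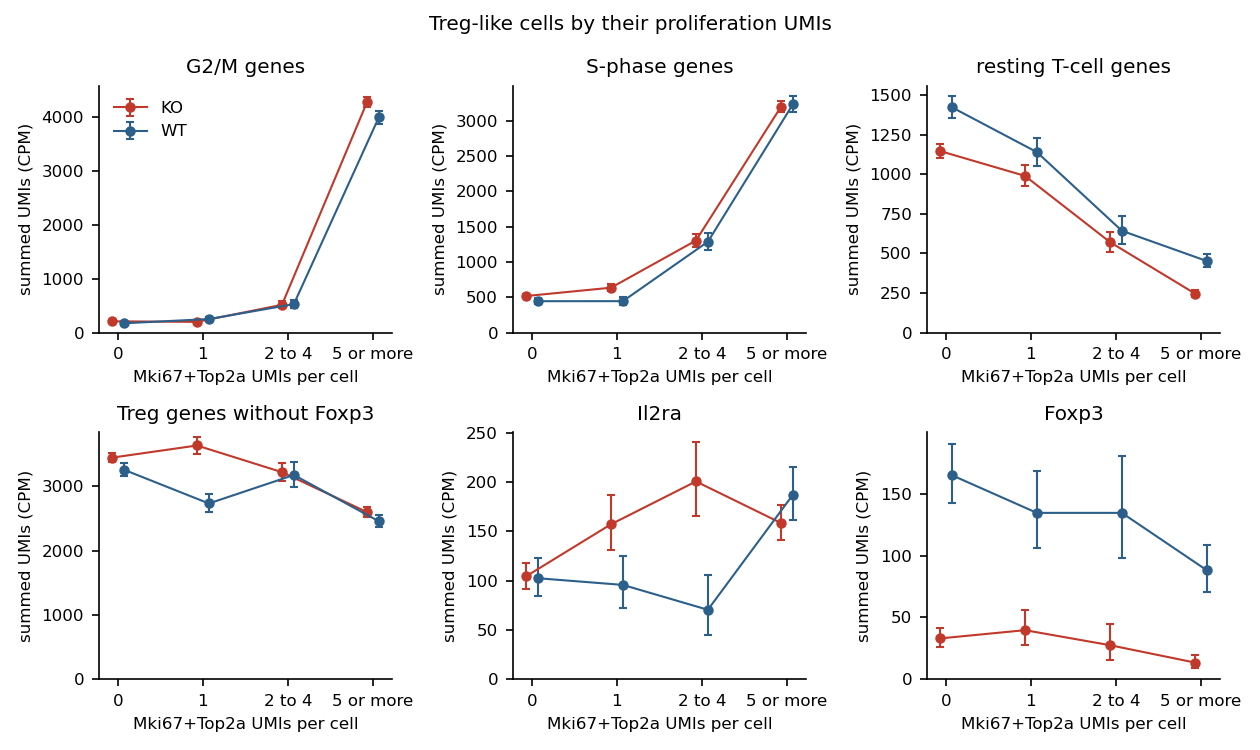
Summed CPM of 3 gene lists and of the Treg list without Foxp3, and CPM of Il2ra and Foxp3 (vertical axes, from 0), in Treg-like cells with 0, 1, 2 to 4 and 5 or more Mki67 and Top2a UMIs (horizontal), KO in red and WT in blue, with 95% Poisson intervals. G2/M genes reach 4281 CPM in KO and 4003 CPM in WT at 5 or more UMIs, resting T-cell genes are lowest there, and Foxp3 is lower in KO in every bin.

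Against non-cycling Treg-like cells of the same library, 782 of 8106 measured genes were higher in cycling cells in both libraries (9.65%) and 627 were lower in both (7.74%). All 25 G2/M genes and 14 of 14 replication histones were higher, as were 24 of 25 S-phase genes, Ung, a DNA repair glycosylase, being past the rule in KO only. The cells compared were split on Mki67 and Top2a, so these counts describe the split and nothing is read from them. In KO, Ube2c was at 286.6 CPM in cycling and 11.4 CPM in non-cycling cells (log2 4.65), and in WT at 288.0 and 9.71 CPM (4.89). Nusap1, a spindle microtubule protein, had log2 ratios of 7.81 in KO and 6.05 in WT, with 2 and 3 UMIs in all non-cycling cells.

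Division genes share letters near their starts. The windows were the 150 bases before each annotated start in RefSeq on GRCm38.p6, searched on both strands for CCAAT, the box bound by NF-Y, for TTTGAA, a cell cycle homology element found in genes of late division, and for TTTGGCGC or TTTCGCGC, forms of the E2F site of S-phase genes. Of 25 G2/M genes 21 matched the table, and 18 of those (85.7%) held CCAAT, beside 12 of 21 S-phase genes (57.1%), 3 of 14 Treg identity genes (21.4%) and 7477 of all 27025 genes (27.7%). TTTGAA was held by 5 G2/M genes (23.8%), 1 S-phase gene (4.76%) and 10.5% of all genes, and an E2F form by 1 G2/M gene (4.76%), 3 S-phase genes (14.3%) and 0.488% of all genes. A match is a description of letters and not a bound site. The windows of 4 G2/M genes and of Mcm6 are printed 5′ to 3′ on the gene's strand, with matches to any of these motifs, read in either direction, in capitals, to show that genes high in dividing cells carry different combinations. Cdk1 is the mitotic kinase, Ccnb2 one of its cyclins, and Cdc20 and Ube2c work with the anaphase-promoting complex.
Ube2c, chr2:164769779-164769928, plus strand: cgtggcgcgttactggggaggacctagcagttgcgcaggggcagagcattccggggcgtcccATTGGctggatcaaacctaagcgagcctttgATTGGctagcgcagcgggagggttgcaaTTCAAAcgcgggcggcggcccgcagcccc
Cdc20, chr4:118437344-118437493, minus strand: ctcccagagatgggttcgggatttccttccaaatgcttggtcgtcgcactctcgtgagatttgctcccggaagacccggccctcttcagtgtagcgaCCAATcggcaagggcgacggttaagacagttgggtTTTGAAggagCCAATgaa
Cdk1, chr10:69352913-69353062, minus strand: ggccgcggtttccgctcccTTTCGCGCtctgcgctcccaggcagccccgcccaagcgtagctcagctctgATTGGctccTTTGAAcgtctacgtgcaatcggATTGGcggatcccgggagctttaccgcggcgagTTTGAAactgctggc
Ccnb2, chr9:70421555-70421704, minus strand: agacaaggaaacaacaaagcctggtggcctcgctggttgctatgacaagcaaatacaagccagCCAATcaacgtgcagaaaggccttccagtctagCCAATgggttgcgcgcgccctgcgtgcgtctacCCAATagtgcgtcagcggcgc
Mcm6, chr1:128359706-128359855, minus strand: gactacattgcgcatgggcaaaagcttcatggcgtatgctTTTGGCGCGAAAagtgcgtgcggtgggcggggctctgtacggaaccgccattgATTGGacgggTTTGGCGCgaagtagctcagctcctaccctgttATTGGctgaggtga
Ccnb2 has 3 CCAAT boxes and neither other motif, Cdk1 has all 3 motifs, and Mcm6 has 3 matches to E2F forms, of which a pair overlaps, and 2 CCAAT boxes without TTTGAA. In cycling cells Cdc20 was at 79.2 CPM in KO and 65.1 CPM in WT, and Ccnb2 at 124.7 and 126.4 CPM. Whether motifs go with levels was not tested.

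Growth genes were higher in cycling cells as well. Of 18 genes of growth, ribosome making and nucleotide synthesis, 10 were higher than in non-cycling cells in both libraries and 0 lower. Npm1, a nucleolar protein of ribosome assembly, was at 1886 CPM in cycling and 840.9 CPM in non-cycling KO cells, and at 1409 and 853.0 CPM in WT cells. Between the genotypes 1 of these 18 genes was higher in KO and 0 lower, the list median being 0.32. That gene was Srm, spermidine synthase of the polyamine pathway, at 53.4 CPM in KO and 18.7 CPM in WT (log2 1.51 [0.89, 2.19]), with 135 and 25 UMIs. Without the cells that stood apart its log2 ratio was 0.88 [0.14, 1.68].

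Genes of resting T cells lay lower in cycling cells, 10 of 11 measured in both libraries. Tcf7, a transcription factor of naive and memory T cells, was at 12.3 CPM in cycling and 89.5 CPM in non-cycling KO cells (log2 -2.87) and at 19.4 and 120.1 CPM in WT cells (-2.63). Il7r, the interleukin-7 receptor, was at 58.2 and 316.6 CPM in KO (-2.44) and at 98.0 and 400.9 CPM in WT (-2.03). Early genes of T-cell receptor signalling were lower too, 9 of 13, among them Egr1, an immediate early transcription factor (55.8 and 200.1 CPM in KO, 39.6 and 166.0 CPM in WT). Ramp3, a receptor activity-modifying protein that pairs with calcitonin-type receptors, had the lowest pair of ratios among the genes named by rule, -3.69 in KO and -2.74 in WT.

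Treg identity genes split in cycling cells. Il2ra and Tgfb1 were higher than in non-cycling cells in both libraries, Il2ra at 168.2 and 104.3 CPM in KO (log2 0.69) and at 158.6 and 102.4 CPM in WT (0.63). Lower in both were Foxp3 (log2 -0.99 [-1.56, -0.43] in KO and -0.73 [-1.06, -0.40] in WT), Icos (-0.99 and -0.83), Izumo1r, the folate receptor 4 of Treg cells (-1.01 and -0.64), Lrrc32, which holds latent TGF-beta on the Treg surface (-1.35 and -0.99), the adenosine-making ectoenzyme Nt5e and the integrin Itgae. Because the rule asks for 1 Ikzf2 and 1 Ctla4 UMI at any depth, shallow cells pass it more readily when these genes are high. Ikzf2 was at 912.2 CPM in KO cells with 0 proliferation UMIs and 560.3 CPM at 5 or more (WT 931.6 and 536.6 CPM). A Foxp3 UMI was held by 22.8% of cycling and 16.7% of non-cycling KO cells, and by 59.1% and 36.8% of WT cells. These ratios and shares are bound to the rule and to depth, whose part was not tested. Levels are shares of the class sum, which holds more division RNA in cycling cells, and the part of this in the ratios was not tested. Over all measured genes the median log2 ratio was -0.045 in KO and -0.032 in WT.

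**Figure D4:**
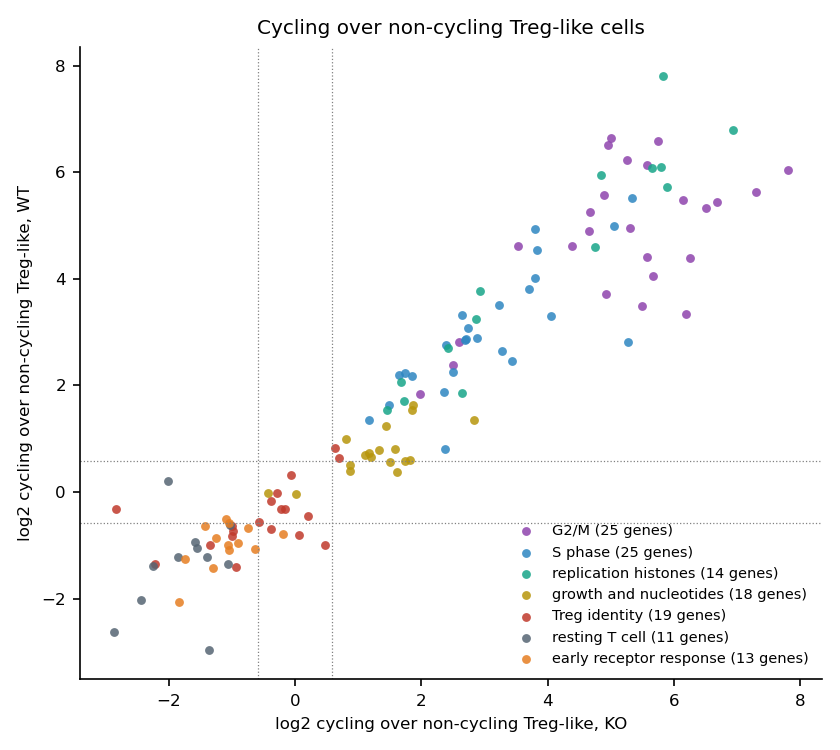
Each point is a gene of 7 lists, with its log2 ratio of cycling over non-cycling Treg-like cells in KO (horizontal) and WT (vertical); dotted lines mark 1.5-fold. G2/M, S-phase and histone genes lie at the upper right, and resting T-cell genes and most early receptor-response genes at the lower left. Of 18 growth genes 10 passed the size rule in both libraries, with list medians of 1.38 in KO and 0.68 in WT.

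Cycling Cd8 cells of the same libraries were the nearest class in cell cycle. Of 9936 measured genes, 358 were higher in cycling Treg-like cells in both libraries (3.6%) and 234 lower in both (2.36%). Among the division genes 0 of 25 S-phase genes, 0 of 14 histones and 1 of 25 G2/M genes passed, the last being Aurka, a centrosome kinase (39.2 CPM in Treg-like and 25.5 CPM in Cd8 cells of KO, 43.4 and 25.4 CPM in WT). Treg identity genes were higher, 12 of 19, and cytotoxic genes lower, 14 of 16. Foxp3 in cycling Treg-like cells exceeded the 1.12 CPM in KO and 10.6 CPM in WT seen in cycling Cd8 cells, with log2 ratios of 3.89 and 3.24.

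Several genes outside the rule marked the cycling Treg-like cells against cycling Cd8 cells in both libraries. Maf, a transcription factor of Treg and helper cells, was at 197.9 CPM in Treg-like and 18.5 CPM in Cd8 cells of KO (log2 3.42), and at 225.2 and 41.2 CPM in WT (2.45). Timp2, a metalloproteinase inhibitor, had log2 ratios of 3.08 in KO and 2.35 in WT, Iigp1, an interferon-induced GTPase, 2.96 and 2.23, and Ramp1, a chain of the calcitonin gene-related peptide receptor, 2.87 and 2.18. Odc1, the rate-limiting enzyme of polyamine synthesis, was higher (log2 0.87 in KO and 0.92 in WT), whereas Myc, a transcription factor of growth, was lower (-1.30 and -0.64). Gzmk, a granzyme, was at 3.96 CPM in Treg-like and 69.8 CPM in Cd8 cells of KO and at 3.74 and 91.9 CPM in WT.

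Other cycling Cd4 T cells, with a Cd4 UMI but no Ikzf2 or Ctla4 UMI, were only 24 in KO and 13 in WT. They were shallower, at medians of 8461 UMIs in KO and 6428 in WT, and were not matched in division RNA. For G2/M genes the median log2 ratio of cycling Treg-like over these cells was 0.54 in KO and 1.39 in WT. For S-phase genes it was 0.22 and 1.61. The part of depth and division in the ratios of this comparison was not tested. Of 6528 measured genes, 121 were higher in cycling Treg-like cells in both libraries (1.85%) and 109 lower in both (1.67%). Foxp3 had 0 UMIs in these cells in both libraries. With 3 UMIs put in place of 0 the log2 ratio was 0.24 in KO, with an interval that reaches -0.12. In WT it was 1.98, a value set by those 3 UMIs and not a lower bound. A difference in Foxp3 from these cells was thus not detectable in KO at this depth. Tnfrsf4 was at 568.4 CPM in Treg-like and 103.3 CPM in other Cd4 cells of KO, and at 426.4 and 42.0 CPM in WT. Il2ra, Tnfrsf18, Tnfrsf9 and Capg, an actin-capping protein, were likewise higher in both, and Chchd10, a mitochondrial protein, had log2 ratios of 3.60 in KO and 4.60 in WT on 2 and 1 UMIs in other Cd4 cells. Tcf7 (-3.78 and -3.38) and Egr1 (-2.87 and -3.67) were lower.

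Among the genes lower in KO cycling Treg-like cells than in WT ones, Ctse followed Foxp3. Ctse encodes cathepsin E, an aspartic protease, and lay at 12.7 CPM in KO and 50.9 CPM in WT (log2 -2.01 [-2.66, -1.38]), detected in 21.95% of KO and 65.2% of WT cells. Without the cells that stood apart its ratio was -2.09. Lamtor3, a subunit of the lysosomal Ragulator complex, was at 17.02 and 52.4 CPM (log2 -1.62 [-2.20, -1.05]) and Mcub, a subunit of the mitochondrial calcium uniporter, at 8.31 and 31.4 CPM (-1.92 [-2.75, -1.13]). Hist1h2ap, a replication histone, was at 1021 CPM in KO and 1955 CPM in WT (-0.94 [-1.02, -0.86]). Hist1h2ap belongs to a cluster of near-identical copies whose reads the counting could split, and 3 of 14 histones were lower while 0 were higher (list median -0.16). Ctse, Lamtor3, Mcub and Hist1h2ap were also lower in KO cycling Cd8 cells (log2 -2.00, -0.97, -1.70 and -0.96).

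Of 9 measured genes of NK cells 7 were lower in KO, with a median log2 of -1.50. Klrb1c (NK1.1) was at 6.73 CPM in KO and 27.7 CPM in WT, and 94.1% of its KO and 94.6% of its WT UMIs lay in the 10 KO and 13 WT cells with NK or gamma-delta RNA. The NK list summed to 98.2 CPM in KO, with Klra4 at 0, and to 228.9 CPM in WT. Klrd1, an NK receptor subunit (55.8 and 110.7 CPM, log2 -0.99), and Fcer1g, a receptor signalling chain (138.9 and 329.9 CPM, -1.25), had log2 ratios of 0.39 and 1.13 when both kinds of cells were left out. The part of these cells in other differences was not tested beyond leaving them out.

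The genes higher in KO included Wdfy4 (log2 3.17), Naaa (2.22), Cst3 (1.49), Psap (0.92) and Irf8 (0.95), genes that dendritic cells use. Cst3, a protease inhibitor of myeloid cells, was at 1714 CPM in KO and 611.2 CPM in WT, and the 15 KO cells with antigen-presenting-cell RNA held 91.8% of its KO UMIs, 96.5% of those of Wdfy4 and 97.3% of those of Naaa. Outside them Wdfy4 had 3 UMIs in KO and 0 in WT, too few for a ratio. Xcr1 and Clec9a, receptors that define conventional type 1 dendritic cells, had 36 and 25 UMIs in KO, of which 34 and 23 lay in those cells, and 0 in WT. Other dendritic genes were lower in KO, namely Cd209a (log2 -1.61), Itgax (-1.50) and Fscn1 (-1.84), so that 2 of 9 measured were higher and 3 lower, with a median of 0.05. Without the cells with antigen-presenting-cell RNA Cst3 had a log2 ratio of -0.02, Naaa of -0.66, Psap of 0.11 and Irf8 of 0.05. The macrophage list summed to 2340 CPM in KO and 1664 CPM in WT, but without Cst3 to 626.5 and 1053 CPM, and 2 of its 9 measured genes were higher and 5 lower, among them the complement gene C1qa (3.96 and 57.6 CPM, log2 -3.86). The dendritic list summed to 1759 CPM in KO and 1742 CPM in WT. Without the cells with antigen-presenting-cell RNA 4 dendritic genes were measured and 0 called in either direction. Of the macrophage list 5 genes were then measured, Spp1 being higher and Fcer1g lower, and C1qa was not called. With all cells, the defining genes Ebf1 and Pax5 of the B-cell list were at 0 in both libraries.

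Leaving out both kinds of cells, and with them UMIs, gave 205 higher and 171 lower genes, and 81 of the 279 higher calls (29.0%) and 94 of the 346 lower calls (27.2%) remained. Those that remained included Ncoa7, a nuclear receptor coactivator (56.6 CPM in KO and 18.7 CPM in WT without these cells, log2 1.60 [0.81, 2.49]), and the Schlafen genes Slfn8 (43.6 and 14.96 CPM, 1.54) and Slfn2 (280.0 and 154.6 CPM, 0.86), Slfn2 being needed for T-cell quiescence. With all cells the ratios were 1.14 for Ncoa7, 1.18 for Slfn8 and 0.71 for Slfn2, and in non-cycling cells -0.45, -0.18 and 0.34. Adam8, a surface protease, also remained (31.6 and 7.48 CPM without these cells, log2 2.08). The 3.14% and 3.89% of all genes hold for all cells, and list counts without these cells have no such share beside them.

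Type I interferon response genes were higher in KO more often than lower. Of 18 measured, 7 were higher and 1 lower, with a median log2 ratio of 0.51, beside 0.01 over all genes. In non-cycling Treg-like cells 5 of 19 were higher and 0 lower, with a median of 0.455, beside 243 and 276 of 8785 genes. The list summed to 4998 CPM in KO and 3817 CPM in WT myeloid cells, and to 1365 and 869.3 CPM in B cells. In cycling Cd8 cells it summed to 1086 CPM in KO and 1446 CPM in WT. Higher levels in KO were thus not particular to the cycling Treg-like cells. Ifit3, an antiviral effector, was at 36.4 CPM in KO and 8.23 CPM in WT (log2 2.15 [1.24, 3.20]) and Ifit1, which binds viral RNA, at 62.9 and 17.9 CPM (1.81 [1.19, 2.49]). A single KO cell held 46.7% of the KO Ifit3 UMIs and 59.1% of those of Ifit1. Irf7, a transcription factor of the response, had 107 and 37 UMIs (log2 0.61) and no such cell. Without the cell of each library with the most UMIs of these genes, 4 of 17 were higher and 1 lower, the median being 0.44, and Ifit1 was no longer called. Ifit3 and its close copy Ifit3b could share reads. Interferon-gamma genes showed 2 higher and 0 lower of 20, with a median of 0.19, among them Iigp1 (96.6 CPM in KO, 56.9 CPM in WT, log2 0.76) and Socs1, a feedback inhibitor (64.5 and 41.9 CPM, 0.62).

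Resting T-cell genes, already low in cycling cells, were lower still in KO, 6 of 11 measured with 0 higher and a median of -0.69. Klf2, a transcription factor of quiescence and egress, was at 42.4 CPM in KO and 84.5 CPM in WT (log2 -0.997 [-1.39, -0.603]) and Il7r at 58.2 and 98.0 CPM (-0.75 [-1.10, -0.40]). Without both kinds of cells that stood apart 2 of 9 were lower, Il7r among them, and 1 was higher, Tcf7, with a median of -0.26. In non-cycling cells 2 of 13 were lower, Ccr7 and Id3. The list summed to 321.4 CPM in KO and 498.2 CPM in WT in cycling Treg-like cells, and to 319.6 and 604.8 CPM in cycling Cd8 cells. Lower levels in KO were thus not particular to the cycling Treg-like cells.

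Inhibitory receptors went both ways. Of 13 measured, 2 were higher in KO and 5 lower, with a median of -0.38, and without the cells that stood apart 4 of 10 were higher and 1 lower, with a median of 0.15. Pdcd1 (PD-1), which dampens T-cell receptor signals, was at 92.6 CPM in KO and 56.9 CPM in WT (log2 0.70 [0.32, 1.10]), at 105.7 and 62.3 CPM without those cells, and had ratios of 0.88 in non-cycling Treg-like and 0.60 in cycling Cd8 cells. Btla, another receptor of this family, had 35 and 5 UMIs (log2 1.89 [0.53, 3.60]). Tigit was lower with all cells and without those that stood apart.

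**Figure D5:**
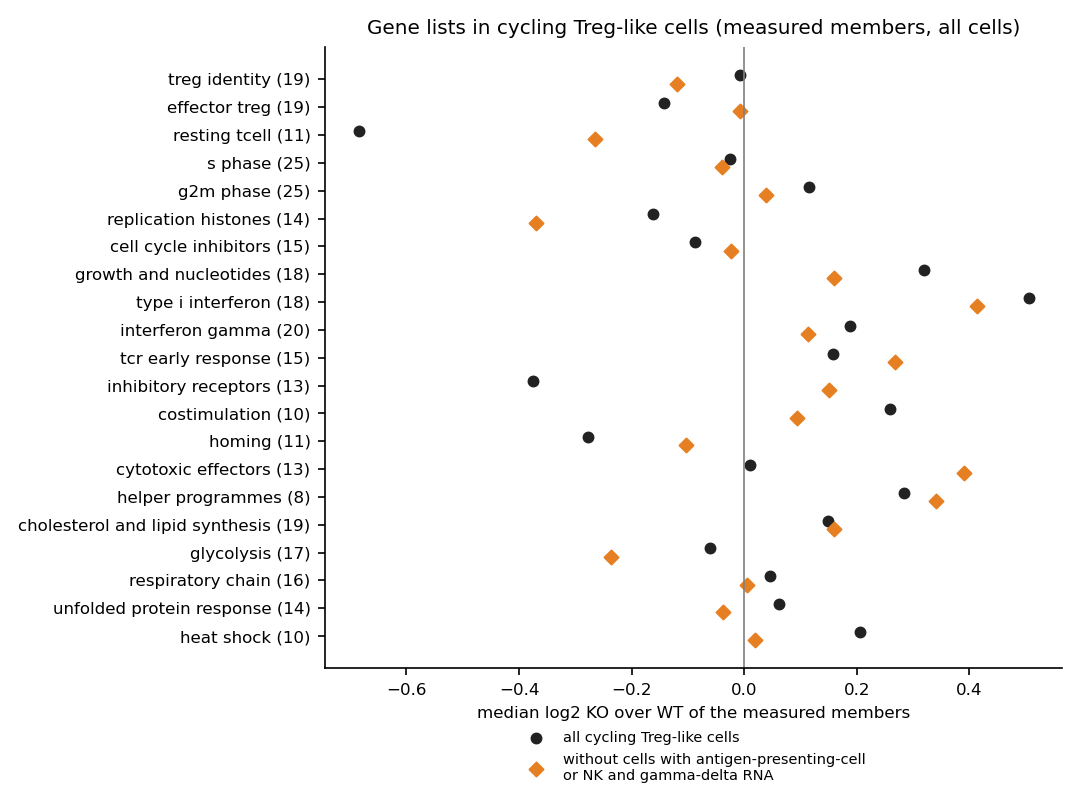
Median log2 ratio of KO over WT (horizontal) for 21 gene lists in cycling Treg-like cells, with all cells (black circles) and without cells with antigen-presenting-cell or NK and gamma-delta RNA (orange diamonds); numbers beside the names are members measured with all cells. Type I interferon genes lie highest at 0.51 with all cells and resting T-cell genes lowest at -0.69, and inhibitory receptors lie on opposite sides of 0 under the 2 settings.

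Most of the remaining lists held few calls between KO and WT. Costimulatory receptors had 0 of 10 members called, and respiratory chain genes 0 of 16. Effector Treg genes had 1 higher and 2 lower of 19, the higher being Il1rl1, the interleukin-33 receptor (13.9 CPM in KO, 5.24 CPM in WT, on 35 and 7 UMIs), and the lower including Nfil3, a transcription factor (16.2 and 28.4 CPM, -0.81). Homing genes had 0 higher and 2 lower of 11, cytotoxic effectors 2 and 3 of 13, helper genes 0 and 1 of 8, cholesterol and lipid synthesis 1 and 0 of 19, glycolysis 0 and 1 of 17, the unfolded protein response 0 and 2 of 14, heat shock genes 2 and 0 of 10, cell-cycle inhibitors 0 and 1 of 15, and early receptor-response genes 1 and 1 of 15. Shares of this size are read beside the 3.14% and 3.89% of all genes, and single members of such lists carry little. Cytotoxic effectors had the most calls of these lists, Ccl3 and Ccl4 being higher and Gzmc, Klrd1 and Klrk1 lower. Without both kinds of cells that stood apart 3 of 9 were higher, Ccl3, Ccl4 and Ifng, and 1 lower, Gzmb, with a median of 0.39.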

How the data were processed

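RNA of single cells was captured with 10x Genomics Chromium 3′ reagents, version 3.1 per the series' design text. The authors deposited whole-number UMI counts per gene and barcode, not normalized. Cell Ranger 5.0.0 is named per the file headers, and STAR and the mm10 genome per the submitters' processing notes. No source used here names the annotation release behind the counts. GENCODE GRCm38 coordinates matched 32235 of 32285 features.

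Barcodes with at least 1000 UMIs, 500 genes and at most 10% mitochondrial UMIs were kept. UMIs were summed per class and library and scaled to CPM. Shares carry Clopper-Pearson, levels Poisson and ratios conditional binomial 95% intervals, and a library at 0 was given 3 UMIs in ratios. PCR copies are merged by UMI, and intervals cover counting error only. With 1 library per genotype there is no test, and the spread between samples is unknown.

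Members, gene lists and motifs were chosen with earlier results of these data known. Genes named had passed the size rule with at least 50 UMIs, 20 CPM and a UMI in 10% of cells of the higher library, at most 25% of UMIs in 1 cell and at least 0.1 of the CPM of B, myeloid and neutrophil classes; the first 12 each way by the interval bound nearest 0 were taken, up to 4 per list, and 8 each way against other classes. Genes named outside it (Tigit, Il10, Ifit1, Ifit3, Irf7, Klf2, Btla, Il1rl1, Xcr1, Clec9a, Adam8, and Treg, division and other list members whose values are given) were chosen after their values were seen. Doublets were not removed. Scrublet in scanpy 1.11.5 scored them, but its caller did not work in KO, so removing the top 8% of scores in each library was an alternative. Python 3.11.15, numpy 2.4.6, scipy 1.17.1 and pandas 2.3.3 were used.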

Additional observations from a re-analysis of the deposited data

Results flagged for a closer look

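In 8 genes, among those named by rule and the members of the gene lists, the size rule for KO over WT was passed in opposite directions in cycling and non-cycling Treg-like cells, and the difference itself was not tested. Irf8, a transcription factor of myeloid and lymphoid cells, had a log2 ratio of 0.95 in cycling cells (200.7 CPM in KO, 104.0 CPM in WT) and -0.65 in non-cycling cells (97.5 and 152.8 CPM); its cycling ratio was 0.05 without the cells with antigen-presenting-cell RNA, which held 52.5% of its KO and 11.5% of its WT UMIs. Snhg15, a noncoding host of small nucleolar RNAs, had 1.26 in cycling cells (43.1 and 17.9 CPM) and -0.70 in non-cycling cells (26.2 and 42.4 CPM). Ebi3 had 0.73 in cycling cells (44.7 and 26.9 CPM) and -0.75 in non-cycling cells (32.1 and 53.9 CPM). Without both kinds of cells that stood apart, Snhg15 kept 1.04 and Ebi3 0.54, for Ebi3 with an interval of -0.09 to 1.22. Il10 had a log2 ratio of -1.77 in cycling cells, on 10 UMIs in KO and 18 in WT, and 0.75 in non-cycling cells, on 67 and 19 UMIs. The chemokine gene Ccl4 had 1.37 in cycling cells (239.9 CPM in KO, 92.8 CPM in WT) and -1.68 in non-cycling cells (134.7 and 431.8 CPM), and 38.6% of its KO and 51.6% of its WT UMIs in cycling cells lay in 1 cell. Ccl3, a related chemokine gene, had 0.79 in cycling and -0.94 in non-cycling cells. The heat shock gene Hspa1b had 0.99 in cycling and -0.92 in non-cycling cells, with 83.3% of its 12 WT UMIs in cycling cells in 1 cell. The inhibitory receptor gene Lilrb4a had -0.76 in cycling and 0.61 in non-cycling cells, but 2.22 in cycling cells without both kinds, on 32 UMIs in KO and 3 in WT. Over the 8267 genes measured in both classes, 37 were called in opposite directions and 52 in the same direction.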

How the results depend on the processing

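No paired analysis was possible because each genotype had 1 library and no replicate number. Foxp3 kept its direction under all 14 alternatives, at -2.12 to -3.24, the lowest being with the rule applied to cells thinned to 5000 UMIs. Raising the rule to 3 Mki67 and Top2a UMIs gave more G2/M than S-phase UMIs in 46.2% of KO cells. Thinned to 2000 UMIs, 62 genes were higher and 68 lower in KO, 169 and 82 in cycling over non-cycling cells, 102 and 57 over cycling Cd8 and 24 and 21 over other Cd4 cells; with fewer UMIs fewer genes can pass. With at least 100 UMIs the counts were 121 and 105 for KO over WT, 425 and 327 over non-cycling cells, 226 higher over Cd8 and 57 lower over other Cd4 cells. Without both kinds of cells that stood apart 171 genes were lower in KO.

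These log2 ratios changed sign. Thinned to 2000 UMIs they were -0.47 for Dis3, 0.11 for Mpp7, 1.11 for Klrb1f, 1.81 for S1pr1, 0.53 for Bcl2, -0.15 for Gins2, -0.079 for Idi1 and -0.30 for Hsph1. As a mean over cells Bcl2 was 0.43. Without cells with NK or gamma-delta RNA Bcl2 was 0.072. Without cells with antigen-presenting-cell RNA Naaa was -0.66 and Cst3 -0.023. Without both kinds Naaa was -0.19, Fcer1g and Klrb1f 1.13, and Klrd1, Klrk1 and Bcl2 0.39. Beyond what leaving out those cells shows, the cause was not tested. The 5 alternatives that leave out cells by their RNA or ask for Cd4 were chosen after seeing the data.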
